A study of Mus musculus with 3 samples.

Results

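The cytosolic ribosomal protein genes were examined for RXRA peaks in 3 CUT&RUN libraries. They were the protein-coding RefSeq genes of the mm10 mouse genome whose symbol is Rpl or Rps with a number and an optional suffix, plus Rplp0, Rplp1, Rplp2 and Rpsa. Kinases of the Rps6k family were left out, and 85 of 21896 protein-coding genes qualified, 32 of the small and 53 of the large ribosomal subunit. RXRA, the retinoid X receptor alpha, is a ligand-activated transcription factor that pairs with other nuclear receptors. In CUT&RUN an antibody guides a nuclease to the protein in permeabilised cells, and the released DNA is sequenced. The series title links the receptor to stem cell quiescence and to the MYC pathway. One library came from 10000 hematopoietic stem cells (HSC; sorted Lin-cKit+Sca1+CD48-CD150+), and 2 libraries, replicates 1 and 2 (MPP1 and MPP2), came from 50000 multipotent progenitors each (MPP; Lin-cKit+Sca1+CD150-). All cells were taken from bone marrow of C57BL/6 mice about 10 months old, pooled from 3 or 4 animals. The genotype label of all libraries is VavCre+; WT, where Vav directs Cre to blood cells, while the growth protocol names Rxrabfl/fl mice and also calls them wild type. Every library was exposed to Bexarotene, an RXR agonist, at 1 mM for 1 h, so no untreated library serves as a baseline. No control-antibody library entered the comparisons. The labels do not say whether the 2 MPP libraries came from separate pools of animals, so their spread may be technical. With 1 HSC library no difference between HSC and MPP has a replicate check, and no p-value is given. A peak reports fragments from all cells of a library, so binding in more cells and more binding per cell cannot be told apart.

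Ribosomal proteins pair with ribosomal RNA to form the small and large subunits of the ribosome, and their genes are among the most active in growing cells. Their promoters are short and often carry ETS-type motifs, and their mRNAs start with a pyrimidine tract (the TOP motif) that lets mTOR signalling control translation. In blood, too little of a single ribosomal protein causes Diamond-Blackfan anaemia in humans. MYC raises the output of these genes, and HSC are known for a low rate of protein synthesis.

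Promoters are shown first for genes on which the results turn. Rps6 and Rps3a1 had a peak summit inside the window in all 3 libraries, as did Rpl7a, which is not printed. Rps9, Rpl9 and Rpl23 led the genes with peaks in MPP1 and MPP2 and none in HSC. Rpsa is 1 of the genes with no gene-end peak in any library. Sequences are RefSeq's, from GRCm38.p6, the assembly behind mm10, and run 5′ to 3′ on the gene's strand from 250 bases before to 50 bases from the listed transcription start. Capitals mark every match, on either strand, to the ETS-type motifs CCGGAAG and CGGAAGT, to the SP1-type motif GGGCGG, the E-box CACGTG, the nuclear receptor hexamer AGGTCA, the TATA motif TATAAA or the YY1-type motif AGATGGC.
Rps6, chr4:86857318-86857617, minus strand: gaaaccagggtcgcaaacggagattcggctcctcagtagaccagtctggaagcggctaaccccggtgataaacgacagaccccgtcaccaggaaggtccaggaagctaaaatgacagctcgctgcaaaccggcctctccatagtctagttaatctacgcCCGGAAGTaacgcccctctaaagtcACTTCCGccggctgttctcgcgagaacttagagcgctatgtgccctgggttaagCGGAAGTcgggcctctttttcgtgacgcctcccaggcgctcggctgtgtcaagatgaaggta
Rps3a1, chr3:86142619-86142918, minus strand: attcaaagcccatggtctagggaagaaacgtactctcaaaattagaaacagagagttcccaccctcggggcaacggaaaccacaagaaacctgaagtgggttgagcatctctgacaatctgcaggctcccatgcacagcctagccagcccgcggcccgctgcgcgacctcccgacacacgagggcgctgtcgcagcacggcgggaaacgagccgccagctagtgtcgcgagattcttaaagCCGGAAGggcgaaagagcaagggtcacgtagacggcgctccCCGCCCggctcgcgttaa
Rps9, chr7:3703791-3704090, plus strand: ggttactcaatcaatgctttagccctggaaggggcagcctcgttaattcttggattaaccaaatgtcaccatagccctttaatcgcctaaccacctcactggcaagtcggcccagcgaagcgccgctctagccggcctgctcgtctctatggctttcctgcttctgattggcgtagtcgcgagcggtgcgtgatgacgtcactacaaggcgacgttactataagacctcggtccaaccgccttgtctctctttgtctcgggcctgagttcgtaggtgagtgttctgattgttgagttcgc
Rpl9, chr5:65391382-65391681, minus strand: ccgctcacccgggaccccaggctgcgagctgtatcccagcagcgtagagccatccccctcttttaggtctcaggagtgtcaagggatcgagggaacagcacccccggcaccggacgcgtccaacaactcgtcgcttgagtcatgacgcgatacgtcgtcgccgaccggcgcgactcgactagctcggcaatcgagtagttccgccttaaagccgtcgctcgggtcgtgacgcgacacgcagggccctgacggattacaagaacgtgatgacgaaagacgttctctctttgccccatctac
Rpl23, chr11:97782390-97782689, minus strand: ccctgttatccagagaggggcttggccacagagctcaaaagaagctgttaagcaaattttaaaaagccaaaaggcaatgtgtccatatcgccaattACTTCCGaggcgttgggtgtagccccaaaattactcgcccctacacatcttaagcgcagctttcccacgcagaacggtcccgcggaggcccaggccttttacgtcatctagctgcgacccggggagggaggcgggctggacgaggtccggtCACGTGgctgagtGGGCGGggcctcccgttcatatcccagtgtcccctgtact
Rpsa, chr9:120127516-120127815, plus strand: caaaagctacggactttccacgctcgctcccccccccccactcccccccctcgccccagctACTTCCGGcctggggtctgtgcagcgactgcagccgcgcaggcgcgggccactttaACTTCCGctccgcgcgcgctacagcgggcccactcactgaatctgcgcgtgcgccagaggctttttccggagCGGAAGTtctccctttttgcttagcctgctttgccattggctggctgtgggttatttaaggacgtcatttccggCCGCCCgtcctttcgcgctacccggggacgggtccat
The receptor's hexamer is found in none of these 6 windows. Rps6, whose protein is the target of the S6 kinases, has ETS-type matches near 3 positions, the closest ending 6 bases before the start. Rpsa, which encodes the laminin receptor protein of the small subunit, has 3 such positions as well and no gene-end peak. Rps9 and Rpl9 have no capitals at all, and Rpl23 has an E-box that spans the start. Of windows not printed, that of Rpl7a holds GGGCGG and no ETS-type match. The window of Rps2, marked in no library, holds CCGGAAG among other matches.

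The HSC list holds 4047 peaks, MPP1 holds 29848 and MPP2 holds 19570. Fragment pileups were recovered from the fold and p of each peak, and the genome-wide background so obtained was 0.604 fragments in HSC, 2.87 in MPP1 and 1.08 in MPP2. The lowest pileup called a peak was 5, 10 and 6 fragments in these libraries. Peak lists give no expression, so the sorted phenotype cannot be checked by marker levels. Of 14 marker genes of stem cells, progenitors and lineage-positive cells, a gene-end peak was found at 0 in HSC, 6 in MPP1 and 3 in MPP2 (Kit, Flt3 and Hlf). The shares were 0%, 42.9% and 21.4%, against 8.2%, 41.2% and 35.9% of all protein-coding genes. No library had a gene-end peak at 8 of the 14. These included stem cell markers as well as the lineage markers Cd3e, Itgam and Ly6g.

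Most ribosomal protein genes had an RXRA peak at a gene end in progenitors, and about 1 in 5 did in stem cells. A peak overlapped the 1 kb window around an end of the gene for 18 of the 85 genes in HSC (21.2%, exact binomial 95% interval 13.1 to 31.4), against 8.2% of all protein-coding genes. In MPP1 it was 60 genes (70.6%, 59.7 to 80.0), against 41.2% of all genes. In MPP2 it was 67 genes (78.8%, 68.6 to 86.9), against 35.9%. The share of ribosomal protein genes was thus above that of all genes in each library, and with the full peak lists the interval did not reach the all-gene share in any of the 3. Intervals cover counting error only, and genes that share a peak do not count independently. The HSC count rests on weak peaks: at a q of 1e-05 or less only Rpl4 remained, 1.18% of the family against 2.0% of all genes, while 46 genes (54.1%) remained in MPP1 and 53 (62.4%) in MPP2, against 27.4% and 25.9% of all genes.

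**Figure D1:**
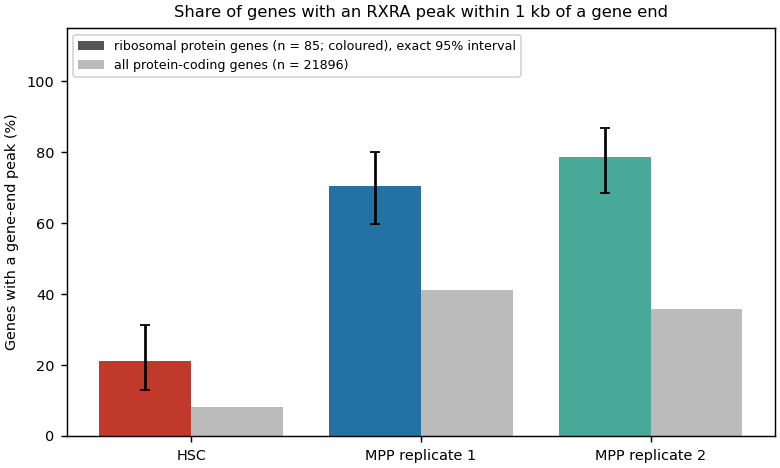
Share of genes (percent, vertical axis) with an RXRA peak within 1 kb of a gene end in each library. Coloured bars are the 85 ribosomal protein genes with exact 95% intervals and grey bars all 21896 protein-coding genes; the family stands at 21.2%, 70.6% and 78.8%, above 8.2%, 41.2% and 35.9%.

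The full peak lists sort the family into a small common set and a larger progenitor set. In 12 genes a gene end was marked in all 3 libraries (14.1%, 7.51 to 23.4, against 5.82% of all genes), and 42 were marked in MPP1 and MPP2 without an HSC peak (49.4%, 38.4 to 60.5, against 23.1%). With each MPP list held to the length of the HSC list, both sets held 4 genes, 4.71% of the family, against 1.44% of all genes for the common set and 3.31% for the progenitor set. The progenitor set was then near the share over all genes. HSC and MPP2 but not MPP1 marked 5 more. Rpl32 was the only member marked in HSC alone (1.18%, 0.0298 to 6.38, against 0.297% of all genes). Another 14 genes were marked in 1 MPP library and not in HSC (16.5%, against 17.3% of all genes), and 11 were marked nowhere (12.9%, 6.64 to 22.0, against 51.4%). Of the family's genes marked in replicate 1, 90.0% (79.5 to 96.2) were marked in replicate 2, against 70.1% over all genes. In the other direction it was 80.6%, against 80.4%. Replicate 2 marked 78.8% of the whole family and 35.9% of all genes, so the 90.0% does not show closer agreement at the family. Among genes marked in both MPP libraries, 22.2% of the family (12 of 54, 12.0 to 35.6) were also marked in HSC, against 20.2% of all genes. Once a gene was marked in both progenitor libraries, the ribosomal family was therefore marked in HSC at about the rate of any gene.

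**Figure D2:**
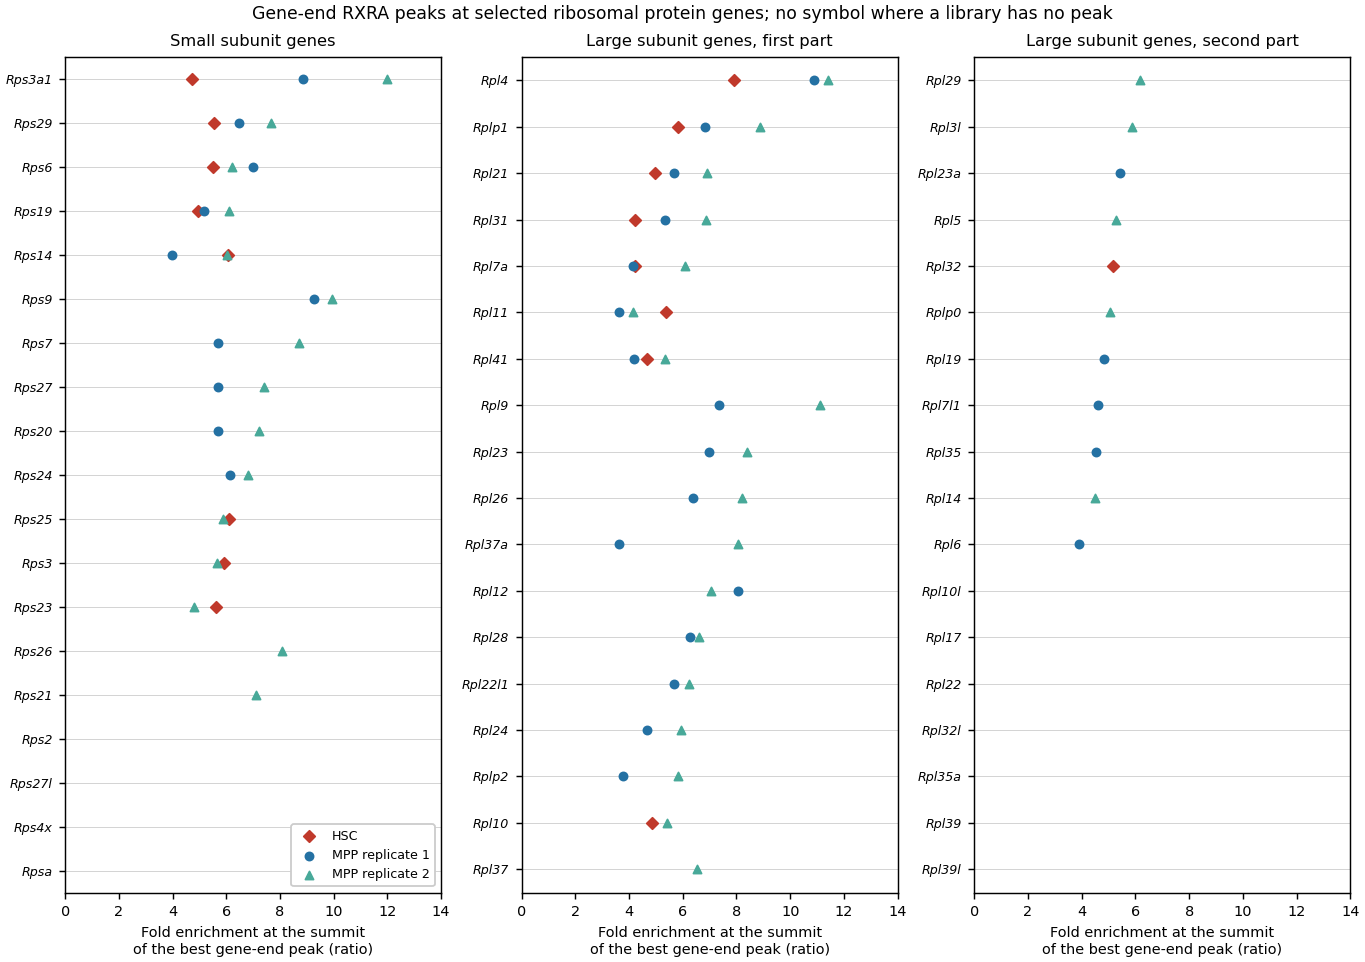
Fold enrichment (ratio, horizontal axis) of the strongest gene-end peak of the ribosomal protein genes named in the text (rows) in HSC (diamonds), MPP replicate 1 (circles) and MPP replicate 2 (triangles). Genes marked in all 3 libraries are at the top of each subunit, led by Rps3a1 and Rpl4, and the 11 genes without a symbol had no gene-end peak; folds are ranked within a library only.

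Rpl4, whose protein lines the exit tunnel of the large subunit, had the strongest peak of the family in HSC, but it lay beyond the far end of the gene. The HSC peak (chromosome 9, 64179092 to 64179498) had a fold of 7.89, from a pileup of 13 fragments (Poisson 95% interval, exact, 6.92 to 22.2). A fold is the authors' own value for the peak and ranks peaks within 1 library only. The fold at this site was 10.9 in MPP1, with a pileup of 49 (36.3 to 64.8), and 11.4 in MPP2, with 31 (21.1 to 44.0). The summits lay 635 to 686 bp beyond the gene, within 1 kb of an end of Snapc5, which encodes a subunit of the small nuclear RNA activating complex, so the peak belongs to both by position. Rpl41, which encodes a very short basic peptide, was similar: its HSC peak of fold 4.67 lay 610 bp outside the gene towards Zc3h10, and its MPP1 peak of 4.19 lay 661 bp outside. MPP2 had its best Rpl41 peak, of fold 5.34, 52 bp downstream of the start instead, and a weaker one of 3.65 that overlapped the HSC peak.

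Rps6 on chromosome 4 (86854099 to 86857367) and Rps3a1 on chromosome 3 had summits at the start in every library. At Rps6 the summit lay 5 bp downstream of the start in HSC, where the fold was 5.50 and the pileup 8 (3.45 to 15.8). It lay 29 bp upstream in MPP1 (fold 7.01, pileup 27, interval 17.8 to 39.3) and 24 bp upstream in MPP2 (fold 6.22, pileup 14, interval 7.65 to 23.5). In the sequence printed above, the MPP positions fall between the ETS-type matches nearest the start and the HSC position falls after the last of them. Rps3a1, which encodes a protein at the mRNA exit side of the small subunit, had its summit 27, 28 and 30 bp downstream of the start in HSC, MPP1 and MPP2. Its pileup was 7 fragments (2.81 to 14.4) in HSC, 37 (26.1 to 51.0) in MPP1 and 32 (21.9 to 45.2) in MPP2, and its fold of 12.0 in MPP2 was the highest of the family there. Its HSC fold of 4.74 stood above 20.1% of all HSC peaks, while its MPP2 fold stood above 99.0% of all MPP2 peaks.

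The stalk protein gene Rplp1, and Rps14 and Rps29 of the small subunit, also had peaks in all 3 libraries. These genes have no start in the promoter table, so distances are to the nearer end of the gene. Rplp1 had folds of 5.81, 6.81 and 8.86 in HSC, MPP1 and MPP2, with summits 6, 26 and 26 bp from its upper end. Rps14, whose human counterpart is lost in a myelodysplastic syndrome, had folds of 6.08, 3.97 and 6.02 with summits 144, 235 and 199 bp outside its lower end. Rps29 had folds of 5.55, 6.46 and 7.66, and its HSC summit lay 259 bp inside the gene while the MPP summits lay 185 and 188 bp outside it. HSC pileups at the 3 genes were 9, 10 and 10 fragments. Each HSC peak overlapped a peak of both MPP libraries.

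Rps19, the gene most often mutated in human Diamond-Blackfan anaemia, was marked in all 3 libraries but not by a common peak. The HSC peak, of fold 4.93, had its summit 162 bp upstream of the start and overlapped the MPP2 peak, of fold 6.10, with its summit 344 bp upstream. MPP1 had a peak 592 bp upstream, of fold 4.04, and a stronger one of 5.18 past the far end of the gene. At Rpl31 the HSC summit lay 176 bp inside the gene, with a pileup of 6 (2.20 to 13.1), while both MPP summits lay upstream, at 93 and 118 bp, with pileups of 21 and 17, and no MPP peak overlapped the HSC peak. Rpl11, which with Rpl5 binds and inhibits the p53 regulator Mdm2, had a peak inside the gene in all 3 libraries. Its fold was 5.39 in HSC, 3.62 in MPP1, the lowest best fold of the family there together with Rpl37a, and 4.15 in MPP2. Rpl7a and Rpl21, both of the large subunit, completed the common set. Rpl7a had folds of 4.23 in HSC, 4.15 in MPP1 and 6.10 in MPP2, at a peak that also lies at Med22, a Mediator subunit gene. Rpl21 had folds of 4.98 in HSC, 5.68 in MPP1 and 6.89 in MPP2, with summits 2, 75 and 11 bp outside its lower end.

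The genes marked in HSC and MPP2 alone included Rps3, Rps23, Rps25 and Rpl10. Rps3, at the mRNA entry of the small subunit, had its summit 26 bp upstream of the start in HSC (fold 5.92, pileup 9, interval 4.12 to 17.1) and 3 bp upstream in MPP2 (fold 5.67, pileup 12, interval 6.20 to 21.0). Rps23, at the decoding centre, had folds of 5.61 in HSC and 4.78 in MPP2. Rps25, whose peaks also reach Trappc4, had a fold of 6.11 in HSC. Its strongest MPP2 peak, of 5.89, lay 623 bp upstream of the start and did not overlap the HSC peak, but a second MPP2 peak of 3.61 did. Rpl10, which joins the large subunit late in its assembly, had folds of 4.84 in HSC and 5.43 in MPP2, with summits 443 and 509 bp upstream of its start. MPP1, the library with the longest peak list and the highest recovered background, called no gene-end peak at any of these genes. At Rpl32, the gene marked in HSC alone, the peak had a fold of 5.17 and a pileup of 8 (3.45 to 15.8), and the nearest MPP summits lay 1754 and 5512 bp from the gene.

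In all, 18 HSC peaks marked the 18 genes. Of these peaks 16 overlapped an MPP2 peak, 10 an MPP1 peak, 10 both and 2 neither. The share overlapping both was 55.6% (30.8 to 78.5), against 63.8% of the 1496 HSC peaks at the ends of all protein-coding genes. The 2 that overlapped neither were those at Rpl31 and Rpl32. At Rpl31 the MPP1 and MPP2 peaks ended at 39367930 and 39367928, just short of the HSC peak, which starts at 39367939. In strength the family's HSC peaks were ordinary: the median fold was 5.28 (4.23 to 7.89), against 5.50 over all genes marked in HSC, and the median pileup 8 fragments against 9.

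The strongest progenitor peaks without an HSC peak were at Rps9, Rpl9, Rpl23, Rpl26 and Rpl12, ordered by the worse of their ranks in the MPP lists. Rps9, a small subunit protein gene on chromosome 7 (3703954 to 3706897), had a peak upstream of its listed start in both libraries. The fold was 9.28 in MPP1, with a pileup of 39 (27.7 to 53.3), and 9.94 in MPP2, with 33 (22.7 to 46.3). A second, weaker peak stood just past the far end of Rps9 in both libraries, with folds of 5.80 and 6.50. Rpl9 had folds of 7.35 and 11.1 with summits 18 bp upstream and 15 bp downstream of the start. Its peak also lies at Lias, the lipoic acid synthase gene. Rpl23, whose protein is another inhibitor of Mdm2, had folds of 6.98 and 8.40, and Rpl26, which also acts on p53, of 6.38 and 8.22. The Rpl23 summits lie 41 and 29 bp downstream of the start, past both the E-box and the GGGCGG match printed above. Rpl12 had folds of 8.04 and 7.06 at a peak it shares with Lrsam1. Rps24, Rps20, Rps27, Rps7 and Rpl28 followed, with folds of 5.69 to 6.26 in MPP1 and 6.59 to 8.71 in MPP2. Summits of the 10 genes differed by 4 to 44 bp between the MPP libraries.

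Over the family, MPP peaks were also of ordinary height. The median fold was 4.98 in MPP1 (3.62 to 10.9), against 4.86 over all marked genes, and 6.22 in MPP2 (3.83 to 12.0), against 6.14. Median pileups were 21 and 16 fragments, against 20 and 14. More of the ribosomal protein genes were marked than of all genes, but a marked one had a peak about as high as that of any marked gene. With each MPP list held to its 4047 peaks of highest fold, 12 of the family were marked in replicate 1 (14.1%, against 8.82% of all genes) and 18 in replicate 2 (21.2%, against 10.1%), beside 18 in HSC. At this list length the interval for MPP1 (7.51 to 23.4) includes the all-gene share.

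The genes marked in 1 MPP library and not in HSC included Rpl6, Rpl7l1, Rpl19, Rpl23a and Rpl35 in MPP1, and Rpl3l, Rpl5, Rpl14, Rpl29, Rpl37, Rplp0, Rps21 and Rps26 in MPP2. Folds were 3.88 to 5.43 in the first set and 4.50 to 8.07 in the second. Rps26, another gene of Diamond-Blackfan anaemia, led with 8.07 and a pileup of 19, its summit 258 bp upstream of the start. Rpl5 had a fold of 5.29 with a pileup of 10, and Rplp0, the base of the stalk, of 5.04 with a pileup of 12.

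Genes with no gene-end peak in any library were Rpl10l, Rpl17, Rpl22, Rpl32l, Rpl35a, Rpl39, Rpl39l, Rps2, Rps4x, Rps27l and Rpsa. They include Rpl10l and Rpl39l, paralogs known from mouse male germ cells, but also core subunit proteins that every ribosome holds. Rps4x, an X-linked gene of the small subunit, was the most remote from RXRA in MPP among the core genes: the nearest summit was 2890298 bp away in HSC, 113638 bp in MPP1 and 65707 bp in MPP2. For Rpsa these distances were 72767, 17476 and 17038 bp, and for Rps2 they were 10419, 2480 and 2420 bp. Rps2 thus had a summit within 5 kb in MPP1 and MPP2, outside the 1 kb window. Rpl17 and Rps27l, a paralog induced by p53, had a summit inside the gene in both MPP libraries, away from the ends. At Rpl10l the nearest summits were 775041, 775000 and 775027 bp away.

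Where a start is listed, most peaks sat near it. The promoter table gives a start and strand for 65 of the 85 genes. A peak lay within 1 kb of a listed start for 11 of them in HSC (16.9%, 8.76 to 28.3, against 8.57% of all genes with a start), 40 in MPP1 (61.5%, 48.6 to 73.3, against 42.1%) and 49 in MPP2 (75.4%, 63.1 to 85.2, against 38.0%). The best peak was nearer the start than the far end in 10 of 12 genes in HSC, 39 of 44 in MPP1 and 46 of 51 in MPP2. Its summit lay within 100 bp of a listed start in 3 of 12 genes in HSC (25.0%, 5.49 to 57.2), 25 of 44 in MPP1 (56.8%, 41.0 to 71.7) and 26 of 51 in MPP2 (51.0%, 36.6 to 65.2). Over all marked genes these shares were 37.1%, 47.9% and 47.6%. The median summit position was -10.5 bp in HSC, -32 bp in MPP1 and -41 bp in MPP2, where negative is upstream, against -83, -24 and -48 bp over all genes. By these measures the family's peaks lay about where gene-end peaks lie in general. Of the 54 genes marked in both MPP libraries, the summits of 43 lay within 100 bp of each other, with a median distance of 22.5 bp.

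**Figure D3:**
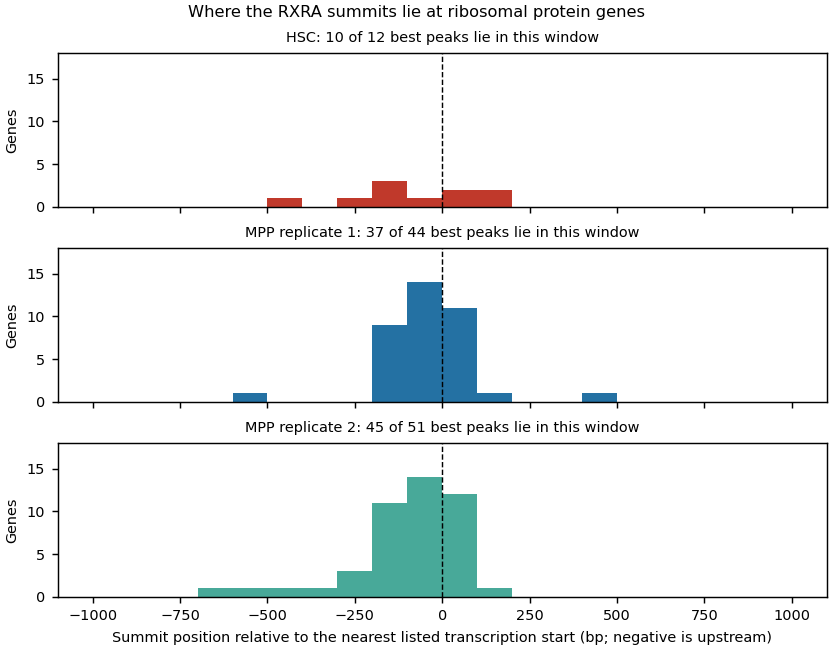
Position of the summit of the strongest gene-end peak relative to the nearest listed transcription start (bp, horizontal axis, in bins of 100 bp; negative is upstream) for ribosomal protein genes with a listed start, as numbers of genes in HSC, MPP replicate 1 and MPP replicate 2. In both MPP panels most summits fall within 250 bp of the start (35 of 44 and 40 of 51 genes), and in HSC 8 of 12 do.

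The HSC library had the lowest recovered background, which bears on what it could show at these genes. Scaled to the HSC background, the 42 genes marked by MPP1 and MPP2 alone would have had a median pileup of 4.31 fragments (2.73 to 8.83) by MPP1 and 8.93 (5.02 to 18.4) by MPP2. The 12 genes that HSC also marked would have had 4.94 (2.73 to 10.3) and 9.49 (5.02 to 17.9), so the ranges of the 2 sets overlapped. The lowest pileup called in HSC was 5 fragments: by MPP1, 13 of the 42 genes reach it, and by MPP2 all 42 do. The MPP libraries thus disagree on how many of the 42 HSC could have shown. At this depth a missing HSC peak at these genes does not show less binding in HSC, and less binding was not tested apart from depth.

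**Figure D4:**
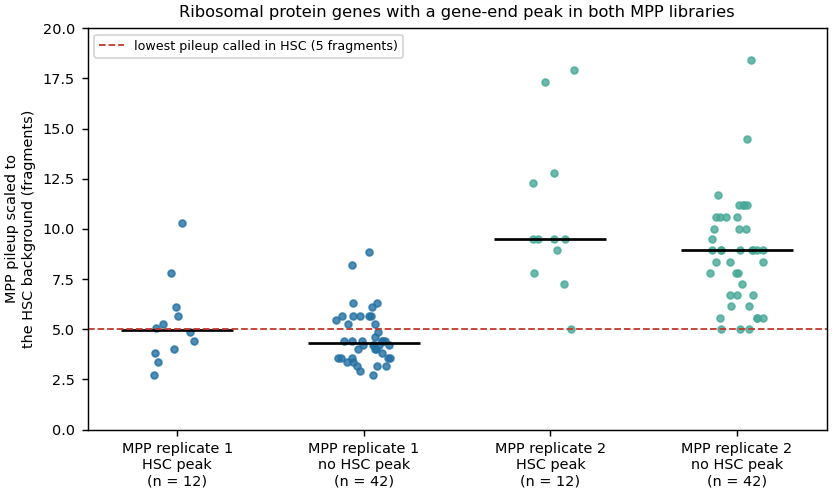
MPP pileups (fragments, vertical axis) of the 54 ribosomal protein genes marked in both MPP libraries, multiplied by the ratio of HSC to MPP background, for genes with and without an HSC gene-end peak; each point is a gene and bars are medians. The dashed line is the lowest pileup called in HSC, 5 fragments, which all points of MPP replicate 2 reach and most points of MPP replicate 1 do not.

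Genes of both subunits were marked in each library. Of 32 small subunit genes, 9 were marked in HSC (28.1%, 13.7 to 46.7), 22 in MPP1 (68.8%, 50.0 to 83.9) and 27 in MPP2 (84.4%, 67.2 to 94.7). Of 53 large subunit genes, 9 were marked in HSC (17.0%, 8.07 to 29.8), 38 in MPP1 (71.7%, 57.7 to 83.2) and 40 in MPP2 (75.5%, 61.7 to 86.2). The intervals of the subunits overlap in every library, and a difference between them was not tested. In HSC the interval of the large subunit includes the 8.2% of all genes and that of the small subunit does not, while in MPP1 and MPP2 both lie above the all-gene shares of 41.2% and 35.9%. Of 19 genes mutated in human Diamond-Blackfan anaemia, 4 were marked in HSC (Rps19, Rps29, Rpl11 and Rpl31), or 21.1%, with an interval of 6.05 to 45.6 that includes the 8.2% of all genes. Of the same genes 16 were marked in MPP1 and 16 in MPP2 (84.2%, 60.4 to 96.6 in each, against 41.2% and 35.9%), with Rpl35a alone unmarked. The shares of the whole family, 21.2%, 70.6% and 78.8%, lie within the intervals of this list, which is part of it. Of 7 listed paralogs (such as Rpl3l and Rpl22l1), 0 were marked in HSC (up to 41.0%). In MPP1 it was 3 of them, and in MPP2 also 3 (42.9%, 9.90 to 81.6 in each). The all-gene shares of 8.2%, 41.2% and 35.9% lie within these intervals, and so do the shares of the whole family. Many ribosomal protein genes carry small nucleolar RNAs in their introns, and 30 of the 85 hold an annotated one. Of these host genes 7 were marked in HSC, 21 in MPP1 and 23 in MPP2, or 23.3%, 70.0% and 76.7%, against 20.0%, 70.9% and 80.0% of the 55 that hold none.

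Some of the marked ends lie beside other genes. The best peak also reached an end of another protein-coding gene for 4 of 18 marked genes in HSC, 16 of 60 in MPP1 and 18 of 67 in MPP2, against 35.4%, 25.8% and 30.1% of all marked genes. Ribosomal protein genes are short, with a median of 3175 bp against 17149 bp, and lie in crowded regions: 50.6% have another gene end within 2 kb, against 32.2% of all genes. Among genes without such a neighbour, 23.8% of the family were marked in HSC (12.1 to 39.5), 71.4% in MPP1 (55.4 to 84.3) and 78.6% in MPP2 (63.2 to 89.7), against 5.61%, 33.4% and 27.2% of all genes. Among genes with one, the shares were 18.6%, 69.8% and 79.1% of the family, against 13.6%, 57.7% and 54.4%. The family's share stood above that of all genes in both settings, although in HSC and MPP1 the interval for crowded members (8.39 to 33.4 and 53.9 to 82.8) includes the all-gene share.

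Some motifs were more frequent in the family's promoters than in all promoters. The windows were those printed above, 300 bases long, for the 65 genes and for 17491 protein-coding genes, with both strands searched. An ETS-type match, CCGGAAG or CGGAAGT (which share the run CGGAAG), was present in 50.8% of the family (33 of 65, 38.1 to 63.4), against 14.5% of all promoters. It was present in 20 of 40 members marked in both MPP libraries and in 5 of 10 marked in none. A run of at least 6 pyrimidines between 5 bases before and 10 bases after the start, as in TOP mRNAs, was present in 40.0% of the family (28.0 to 52.9) on the gene's strand, against 13.0% of all promoters. GGGCGG was present in 60.0%, against 46.3%, CACGTG in 7.69%, against 7.90%, TATAAA in 12.3%, against 13.3%, and AGATGGC in 13.8%, against 6.18%. TATAAA and AGATGGC were each present in 3 of 40 members marked in both MPP libraries (7.5%, 1.57 to 20.4) and in 4 of 10 marked in none (40.0%, 12.2 to 73.8). The intervals of these member sets overlap, and the difference was not tested. Over all genes marked in both MPP libraries TATAAA was present in 6.46% and AGATGGC in 7.87%. GGGCGG was present in 60.0% of either member set, against 67.1% of all genes marked in both MPP libraries. These are descriptions of letters and not of bound factors.

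The nuclear receptor hexamer AGGTCA was present in 10.8% of the family's promoters (7 of 65, 4.44 to 20.9), against 14.5% of all promoters. The 7 were Rpl3l, Rpl10l, Rpl22, Rpl24, Rpl35a, Rps3 and Rps4x. Only Rpl24 of these was marked in both MPP libraries, so 1 of 40 promoters of such members held the hexamer (2.5%, 0.0633 to 13.2), against 11.4% of the promoters of all genes marked in both. Among the members marked in no library 4 of 10 held it (40.0%, 12.2 to 73.8), namely Rpl10l, Rpl22, Rpl35a and Rps4x. The intervals of these sets overlap, the split was read after the values were seen, and the difference was not tested. The interval of the family includes the 14.5% of all promoters. That of the members marked in both MPP libraries includes the 11.4%. Direct repeats of AGGTCA spaced by 1, 4 or 5 bases, the arrangements known for RXR with its partners, were in 0 of 65 promoters, which allows a share of up to 5.52%, and in 9, 0 and 1 of all 17491. The search covers exact letters in 300 bases only.

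Other genes of the translation machinery were also marked in MPP. Fau and Rack1, which encode ribosomal proteins outside the naming rule, were marked in MPP1 and MPP2 without an HSC peak, Fau with folds of 4.35 and 6.44. Of 16 other genes with TOP mRNAs, 1 was marked in HSC (6.25%, 0.158 to 30.2, against 8.2% of all genes), 13 in MPP1 (81.2%, 54.4 to 96.0, against 41.2%) and 12 in MPP2 (75.0%, 47.6 to 92.7, against 35.9%). The 1 in HSC was Tpt1, a growth-related tumour protein gene, with folds of 4.71, 4.23 and 5.59 in HSC, MPP1 and MPP2. Eef1a1 and Eef1g, of the elongation machinery, and Npm1, a nucleolar chaperone of ribosome assembly, were marked in both MPP libraries, and Eif3e in none. The Npm1 peak was weak in MPP1 (fold 2.84, q 0.0733, pileup 10). Its summits lay 1072 bp (MPP1) and 1040 bp (MPP2) from the gene end, so only the peak edge reached the window. Of 17 genes that escort ribosomal proteins, control their synthesis or sense their surplus, 0 were marked in HSC (up to 19.5%), 10 in MPP1 (58.8%, 32.9 to 81.6) and 14 in MPP2 (82.4%, 56.6 to 96.2). The all-gene shares were 8.2%, 41.2% and 35.9%, and the HSC and MPP1 intervals of this list include theirs. Trp53 and Mdm2, the endpoint of the ribosomal protein checkpoint, had folds of 5.08 and 4.52 in MPP1 and 7.20 and 5.84 in MPP2. Larp1, which binds TOP mRNAs, and Tsr2, the escort of Rps26, were marked nowhere.

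Summits inside the genes were not in excess. A summit lay inside 7 of the 85 genes in HSC (8.24%, against 7.91% of all genes), 28 in MPP1 (32.9%, against 42.4%) and 26 in MPP2 (30.6%, against 32.2%), though these genes are far shorter than most. Within the gene or 50 kb of it, a summit was present for 44 genes in HSC (51.8%, 40.7 to 62.7, against 33.9%), and for 83 in each MPP library (97.6%, 91.8 to 99.7, against 78.7% in replicate 1 and 72.7% in replicate 2). The median number of summits in this range was 1 in HSC, 5 in MPP1 and 3 in MPP2, against 0, 3 and 2 over all genes. The family thus had more summits in this range than all genes. The range includes the gene and its ends, and the surroundings were not counted without them.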

How the data were processed

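RXRA CUT&RUN was measured in 1 HSC and 2 MPP libraries, grouped by cell type and title. Per the submitters' processing notes, the authors used MACS2 2.1.4, Bowtie2 2.3.4.1, cutadapt 1.9.1 and Trim Galore 0.4.2, with mm10. For settings, any control library and the handling of duplicate or multiply mapped reads, the sources used here give nothing. The deposited files are 1 peak list per library, with a summit offset per peak. The deposited fold was read as a ratio, summit pileup plus 1 over local background plus 1. The deposited -log10 p and q-values belong to each peak, and the deposited score is 10 times the -log10 q-value and was not used. Pileups were solved from fold and a Poisson p, and were whole (tolerance 0.001 on the -log10 p scale) for 99.98%, 100% and 99.99% of peaks in HSC, MPP1 and MPP2 (checked on simulated data). Total read depth is unknown, and a marked gene is one with a peak overlapping the 1 kb around either of its ends. Marking was checked against bedtools 2.31.1, and intervals are exact binomial (Clopper-Pearson) or exact Poisson, at 95%, from scipy 1.17.1 in Python 3.11.15. Genes are RefSeq's for GRCm38.p6.

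Genes named are all members marked in HSC, all marked in none, the 10 with the best worse rank over both MPP libraries among those marked there and not in HSC, those marked in 1 MPP library, and list genes. The members and lists were chosen with earlier results of these data known. Names outside this rule (neighbours that share a peak, examples from the lists) and the promoters to print, Rpsa among them, were chosen after their values were seen. A few genes are counted but not reported here by name. Of the 8 paralogs listed, 7 were in the table. Alternatives were other windows, summits only, nearest gene only, a stricter q, listed starts only, equal list lengths, each MPP library left out, no paralogs, and other overlaps.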

Additional observations from a re-analysis of the deposited data

How the results depend on the processing

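Of the comparisons repeated under other settings, the counts of marked genes stayed within 1.5 times the reported ones with windows of 500 bp or 5 kb, summits in place of whole peaks, each peak given to the nearest gene end, or without the paralogs. With q at or below 1e-05 the counts in HSC and in all 3 libraries were 1 and 1, since only 438 genes of any kind then stay marked in HSC. With listed starts only, they were 11 and 7, over 65 genes in place of 85. With the MPP lists held to the length of the HSC list, 12 genes were marked in MPP1, 18 in MPP2, 4 in all 3 libraries (4.71%, against 1.44% of all genes), and 4 in MPP1 and MPP2 without HSC (4.71%, near the 3.31% of all genes), because fewer peaks enter. Leaving out each MPP library in turn gave 12 to 17 genes marked in HSC and the other MPP library, and 48 to 50 in that MPP library and not in HSC. The 10 HSC peaks that overlapped both MPP libraries became 9 with 50% coverage and 12 with a gap of 1 kb. No paired analysis was possible because the labels give the HSC library no replicate number and no test was run. HSC pileups of 6 to 13 fragments limit any statement on single genes there.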

Other observations

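Pseudogenes named after ribosomal proteins carry related letters elsewhere in the genome. Whether each is a processed copy without the parent promoter was not checked. The handling of multiply mapped reads is unknown, so few peaks at such copies do not show a lack of binding. Of 318 annotated pseudogenes named after a ribosomal protein with a ps suffix, a gene-end peak was found at 0 in HSC, 5 in MPP1 (1.57%, exact interval 0.512 to 3.63) and 2 in MPP2 (0.629%, 0.0763 to 2.25). The share over all 10442 pseudogenes was 0.479%, 3.16% and 1.97%. The 5 were near Rpl5-ps2, Rpl30-ps6, Rpl37a-ps2, Rpl38-ps1 and Rpsa-ps9, and the 2 near Rps2-ps3 and Rpsa-ps12, so no pseudogene recurred between the MPP libraries. Pseudogenes under other names were not counted here.

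In the promoter table the ETS-type motifs CCGGAAG and CGGAAGT were also more frequent among all genes marked in both MPP libraries, 27.1% (25.9 to 28.3), than among all promoters, 14.5%. The pyrimidine tract was not: 12.7% against 13.0%. In the ribosomal family the tract was present in 19 of 40 members marked in both MPP libraries and in 2 of 10 marked in none, with intervals of 31.5 to 63.9% and 2.52 to 55.6% that overlap.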
